A study of Mus musculus with 4 samples.

Results

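The mitochondrial ribosomal protein genes are the nuclear genes for the protein subunits of the ribosome that works inside mitochondria. Members were the protein-coding genes whose GENCODE M21 symbol is Mrpl or Mrps followed by a number and at most 1 letter, with at least 20 counts summed over the 4 libraries. All 78 genes with such a symbol met the count minimum, of 54532 gene IDs in the count table, with summed counts from 2884 to 16380. The symbols place 49 members in the large subunit (Mrpl) and 29 in the small subunit (Mrps), and all 78 entered the test across genes.

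RNA came from microdissected cranial neural tubes of mouse embryos at embryonic day 10.5, with 2 libraries per group, each from 1 embryo. DCKO embryos were flox/flox at Lats1 and flox/flox at Lats2, and carried 1 copy of the transgene E2f1 Tg(Wnt1-cre)2Sor. Control embryos lacked that transgene, and whether they carried floxed alleles is not stated. LATS1 and LATS2 are kinases of the Hippo pathway that restrain the coactivators YAP and TAZ. Cre under Wnt1 regulatory sequences acts in the dorsal neural tube and neural crest, so the dissected tube also holds cells without Cre.

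Mitochondria carry their own small genome, which encodes core subunits of the respiratory chain, and a dedicated ribosome translates its messages. The RNA of that ribosome is transcribed from the mitochondrial genome, whereas its proteins are encoded in the nucleus, made in the cytosol and imported. Many of these proteins descend from bacterial ribosomal proteins, and others have no counterpart in the bacterial ribosome. Without this ribosome the respiratory chain cannot be assembled, and loss of some of its proteins is lethal in mouse embryos.

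In DCKO, 8 of 78 members fell and 0 rose at an adjusted p under 0.05 (edgeR quasi-likelihood test, Benjamini-Hochberg adjustment over 19207 genes), against 17% of all tested genes called, 8.11% lower and 8.93% higher. The 8 were Mrpl41, Mrpl16, Mrpl28 and Mrpl50 of the large subunit and Mrps12, Mrps11, Mrps18c and Mrps25 of the small subunit, with falls between 41.8% and 64.2%. The share of lower members, 10.3%, lay near the background of all genes and below the 13.1% of lower calls among the 6115 genes in the members' range of summed counts, of which 22.8% were called and 9.75% were higher. Without adjustment, 15 members (19.2%) had a p under 0.05 and lower values, and 4 (5.13%) had one and higher values, against 17.4% and 18.5% of all tested genes. DESeq2 and limma-voom each called 1 member higher, Mrpl45.

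Promoter sequences are shown for 2 members that fell, Mrpl41 and Mrps12, and for the 2 members with the highest fitted fold changes, Mrps21 and Mrpl45, neither of which passed the test. Each is the 250 bases before the RefSeq start on GRCm38.p6, written along the gene's strand. They lie at chr2:24975099-24975348 (minus strand) for Mrpl41, chr7:28741822-28742071 (minus) for Mrps12, chr3:95871515-95871764 (minus) for Mrps21 and chr11:97315466-97315715 (plus) for Mrpl45. Capitals mark matches to the letters of the factor NRF1 (GCGC, any 2 bases, GCGC), to CCGGAAG of the ETS factors including GABP, or to AAGATGGC of YY1, on either strand. These 3 kinds of factor are known to bind promoters of nuclear genes for mitochondrial proteins.
Mrpl41: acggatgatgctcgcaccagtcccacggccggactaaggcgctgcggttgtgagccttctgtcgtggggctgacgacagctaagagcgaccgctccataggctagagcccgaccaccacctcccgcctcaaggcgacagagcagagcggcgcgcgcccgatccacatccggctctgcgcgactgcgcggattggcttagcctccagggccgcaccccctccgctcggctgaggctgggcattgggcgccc
Mrps12: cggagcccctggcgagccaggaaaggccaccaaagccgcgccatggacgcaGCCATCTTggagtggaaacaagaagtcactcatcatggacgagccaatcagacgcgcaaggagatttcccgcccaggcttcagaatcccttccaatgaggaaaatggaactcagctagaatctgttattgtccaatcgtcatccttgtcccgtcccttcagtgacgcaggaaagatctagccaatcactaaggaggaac
Mrps21: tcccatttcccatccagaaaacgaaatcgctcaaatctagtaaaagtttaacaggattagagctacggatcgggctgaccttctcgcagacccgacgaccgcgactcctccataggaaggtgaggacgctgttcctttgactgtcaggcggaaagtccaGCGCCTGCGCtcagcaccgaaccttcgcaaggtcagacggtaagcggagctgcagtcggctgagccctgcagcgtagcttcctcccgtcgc
Mrpl45: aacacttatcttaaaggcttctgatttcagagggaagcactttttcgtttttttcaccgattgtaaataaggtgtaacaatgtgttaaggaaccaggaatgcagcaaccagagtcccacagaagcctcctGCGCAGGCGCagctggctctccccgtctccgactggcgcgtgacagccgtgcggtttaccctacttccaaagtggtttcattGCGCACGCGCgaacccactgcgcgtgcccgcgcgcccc
The Mrpl41 stretch holds none of the 3 motifs, that of Mrps12 holds the YY1 letters once, that of Mrps21 the NRF1 letters once, and that of Mrpl45 the NRF1 letters at 2 places. RefSeq windows of 300 bases, 250 before and 50 after the start, were found for 69 of the 78 members. In the 50 bases after the start, not shown above, Mrps12 and Mrps21 each also hold the ETS letters. Mrpl45 holds the NRF1 letters again there, and Mrpl41 holds none of the 3 motifs. Some genes have several windows, and a gene was counted once if any of them held the letters. At least 1 of the 3 motifs occurred in 44 of these 69 members (63.8%), against 31.5% of tested genes with a window and 17.9% of all genes with a window. By motif, the NRF1 letters occurred in 20.3% of these members and 13.6% of such tested genes, the ETS letters in 37.7% and 17.8%, and the YY1 letters in 17.4% and 4.68%. Among cytosolic ribosomal protein genes with a window, 40.4% held the ETS letters. Of the 8 members that fell, 4 held at least 1 of the 3 motifs. The letters GGAATG belong to the TEAD factors, the DNA-binding partners of YAP and TAZ. They occurred in 11.6% of the members with a window and 14.7% of such tested genes, and those of the E-box (CACGTG) in 7.25% and 11.1%. The last letters of the ETS motif, AAG, are the first of the YY1 motif, and matches of the 2 overlapped in 0 of the members' windows. A match describes letters in a window and is not a measured binding site.

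The members' transcript levels spanned more than an order of magnitude within each library. On the length-scaled TPM the authors deposited (scaled so that each library sums to 1000000, a level), the highest member was 17.8 to 24.0 times the lowest. Mrpl54, a large-subunit protein without a bacterial counterpart, had the highest mean level, at 177 and 188 TPM in Control 1 and Control 2 and 167 and 156 TPM in DCKO 1 and DCKO 2. Next by the mean over the 4 libraries came Mrpl52, Mrpl30, Mrps21, Mrpl28 and Mrpl12, at 133, 118, 115, 107 and 101 TPM, with overlapping ranges. Their order differed between the groups: Mrpl28 had 147 and 145 TPM in Control and 62.3 and 71.8 TPM in DCKO, whereas Mrps21 had 106 and 95.7 TPM in Control and 137 and 123 TPM in DCKO. At the low end, Mrpl1, Mrpl35, Mrpl17, Mrps35 and Mrps25 had means from 10.3 to 13.3 TPM. The order of the members by TPM was closer within groups than across them. Spearman's rho across the 78 genes was 0.927 between the 2 Control libraries, 0.888 between the 2 DCKO libraries and 0.767 to 0.836 across groups. Over all tested genes, by scaled counts, rho was likewise higher within groups, at 0.983 and 0.966, than across them, at 0.921 to 0.928. These correlations run across genes of whole libraries, which share gene lengths and depth, and genes are not independent replicates.

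The summed TPM of the members was 4328 and 3926 in Control and 3037 and 3319 in DCKO. Both DCKO sums thus lay below both Control sums. The median log2 change of all genes was also negative on the TPM scale, at -0.19 (log2 of TPM plus 1, genes with a mean TPM of at least 1). With TMM scaling, which sets libraries level on most genes, the summed CPM (counts scaled to a library of 1000000) was 2743 and 2960 in Control and 2649 and 2521 in DCKO. As a share of all counts, members made up 0.311% and 0.331% in Control and 0.235% and 0.223% in DCKO. Ribosomal RNA, counted at 4 genes on chromosome 17, made up 13.2% of the counts in Control 1, 12.4% in Control 2, 24.7% in DCKO 1 and 30.3% in DCKO 2. Without them the members' share was 0.359% and 0.378% in Control and 0.312% and 0.320% in DCKO, so the gap between the groups was narrower. In whole tissue, fewer cells of a type and less RNA per cell cannot be told apart.

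**Figure D1:**
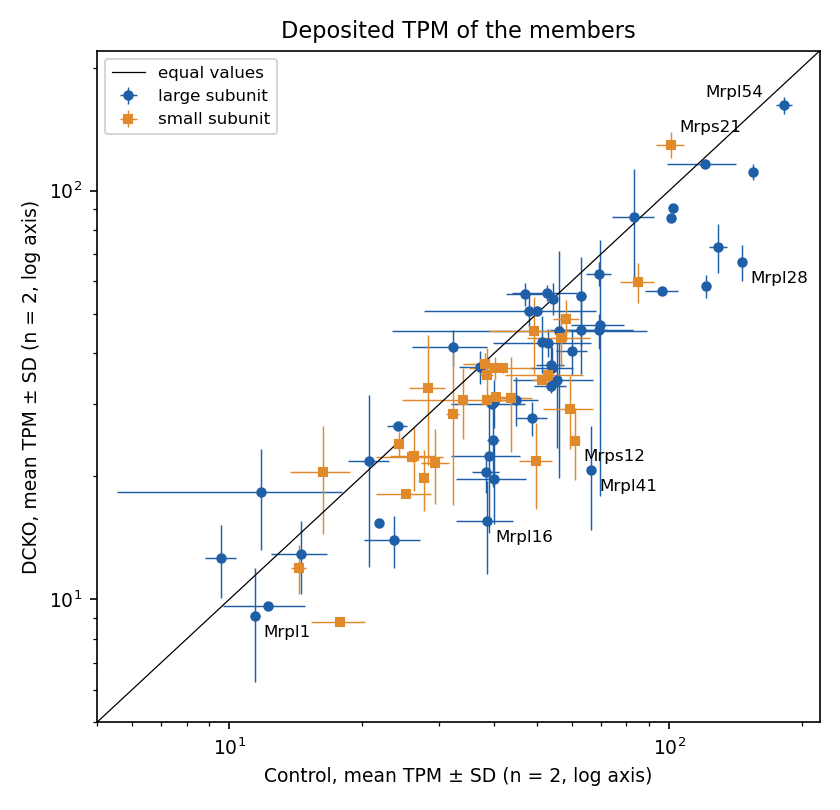
Deposited TPM of the 78 members in Control (x axis) and DCKO (y axis), both on log axes, as mean ± SD with n = 2 libraries per group; the line marks equal values. Most points lie below the line, Mrpl41 far below it, and Mrpl54 and Mrps21 stand at the upper end. The median log2 change of all genes was also below 0 on the TPM scale, at -0.19 (log2 of TPM plus 1).

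The 2 subunits were compared by their medians and their calls. The median log2 fold change, DCKO relative to Control, was -0.17 for the 49 large-subunit members and -0.06 for the 29 small-subunit members, against 0.03 for all tested genes, -0.02 for protein-coding genes and -0.10 for genes in the members' count range. In the large subunit 4 of 49 members fell (8.16%), and in the small subunit 4 of 29 did (13.8%). Of all tested genes 8.11% fell, and of genes in the members' count range 13.1% did. Negative fold changes, called or not, were found for 31 of 49 (63.3%) and 19 of 29 (65.5%). The share was 48.8% for all tested genes and 55.8% for genes in the count range. The ratio of summed large-subunit TPM to summed small-subunit TPM was 2.37 and 2.47 in Control and 2.30 and 2.23 in DCKO. Both DCKO ratios were lower, with a Control mean of 2.42 ± 0.07 and a DCKO mean of 2.27 ± 0.05 (SD, n = 2). With 2 libraries against 2, an exact permutation test of such a ratio cannot reach 0.05, so none is given. Leaving out DCKO 1 placed the small-subunit median, at -0.21, below the large-subunit median of -0.16, whereas without DCKO 2 they were -0.01 and -0.09, without Control 1 -0.12 and -0.27, and without Control 2 -0.04 and -0.11.

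Most members had small fitted fold changes. The fitted log2 fold change lay within 0.5 of 0 for 59 of 78 members (75.6%), against 44.3% of all tested genes and 55.7% of genes in the same count range. The groups did not overlap for 45 members (57.7%), with DCKO below Control for 31 (39.7%) and above it for 14 (17.9%). Among all tested genes the shares were 66.4%, with 32.9% below and 33.6% above. Among genes in the same count range they were 70.4%, with 40.8% below and 29.7% above. The DCKO pair was the looser one: its members differed by a median of 0.225 on the log2 scale, against 0.150 for the Control pair. More than 0.5 apart were 6 members in DCKO and 3 in Control.

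**Figure D2:**
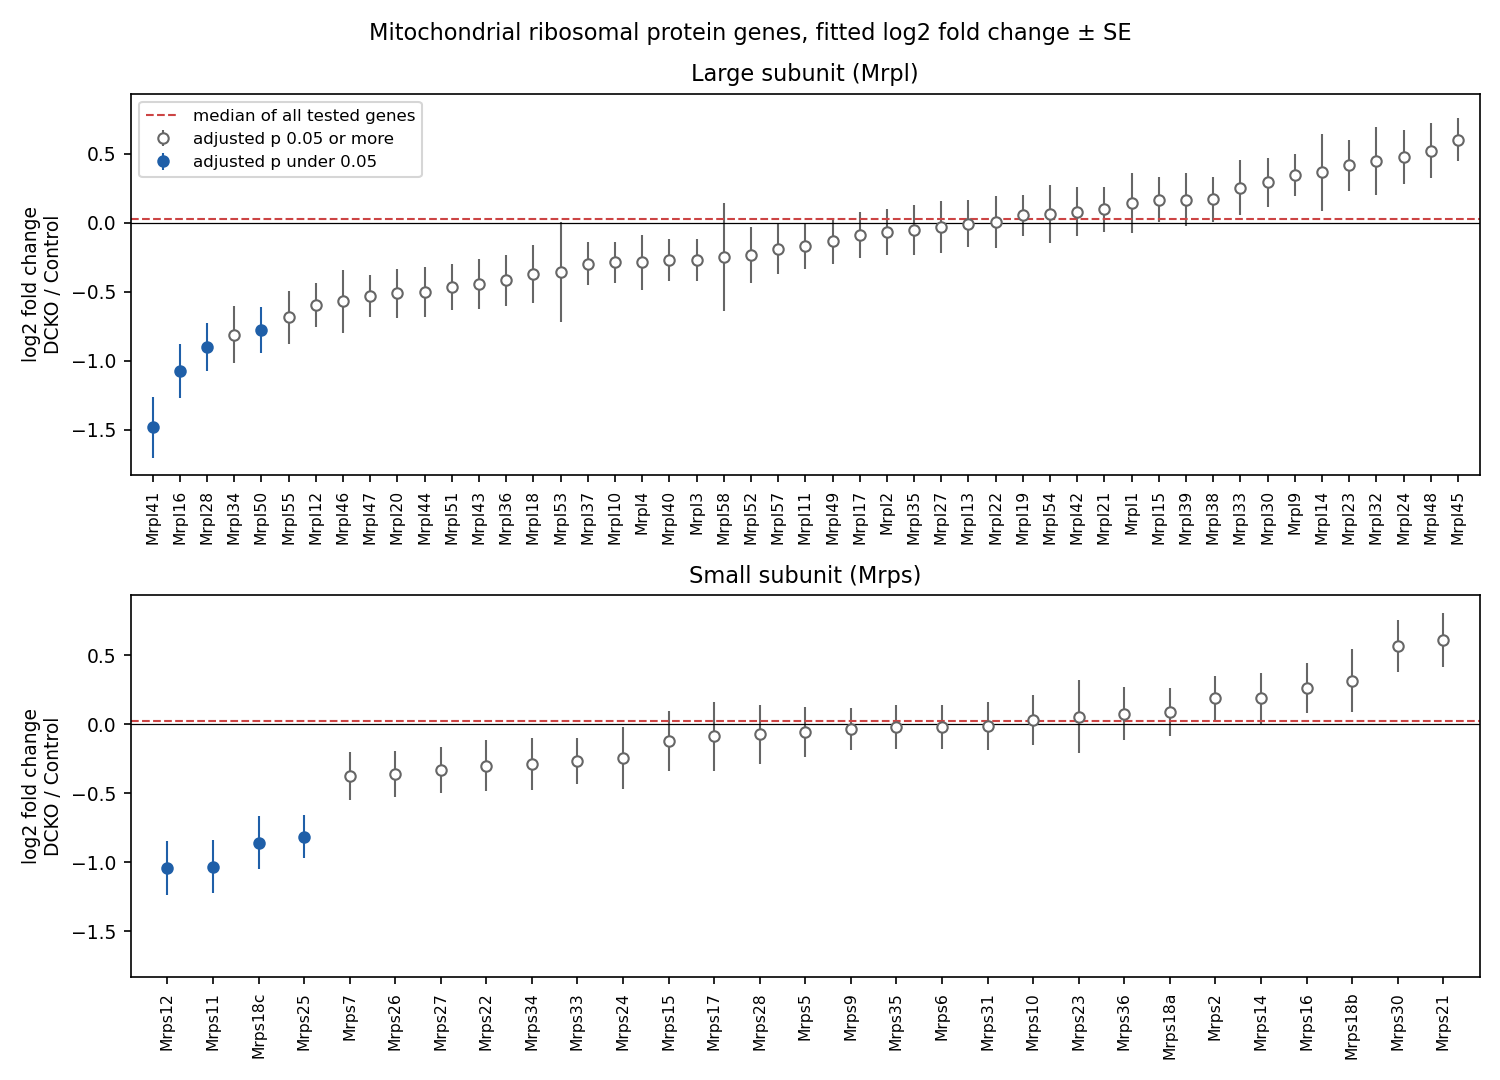
Fitted log2 fold change of each member, DCKO relative to Control, ± SE, for the large subunit (top) and the small subunit (bottom); filled points have an adjusted p under 0.05 and the dashed line is the median of all tested genes. Values run from -1.48 (Mrpl41) to 0.61 (Mrps21), and each of the 8 filled points is negative.

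Mrpl41 (ENSMUSG00000036850, chromosome 2, 24974117 to 24975098, GRCm38, minus strand), a large-subunit protein without a bacterial counterpart, was lower in DCKO by more than any other member. It had 27.9 and 33.1 CPM in Control and 9.47 and 12.3 CPM in DCKO. The groups were far apart, at 30.5 ± 3.71 and 10.9 ± 2.03 CPM (SD, n = 2), and the fitted log2 difference was -1.48 (SE 0.22, adjusted p = 0.0170, edgeR). On the TPM scale it had 67.4 and 65.8 in Control and 16.5 and 24.9 in DCKO. Its promoter, shown above, held none of the 3 motifs.

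Mrpl16 (chromosome 19, 11770391 to 11774960), a homologue of a bacterial large-subunit protein close to the tRNA sites, had 25.6 and 25.3 CPM in Control and 10.8 and 13.2 CPM in DCKO. Its Control values nearly coincided, and both DCKO values were lower, with a fitted log2 change of -1.08 (SE 0.20, adjusted p = 0.0251, edgeR). Mrpl28 (chromosome 17, 26123500 to 26126613), another homologue of a bacterial large-subunit protein, had the highest mean TPM of the 8 (107), with 79.5 and 96.8 CPM in Control and 47.8 and 46.5 CPM in DCKO. Its fitted log2 change was -0.90 (SE 0.17, adjusted p = 0.0276). Mrpl50 on chromosome 4, which has no bacterial counterpart, had 51.1 and 48.2 CPM in Control and 26.7 and 31.2 CPM in DCKO. That gave a fitted log2 change of -0.78 (SE 0.17, adjusted p = 0.0344), the smallest of the 8.

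In the small subunit, Mrps12 (chromosome 7, 28739641 to 28741820, minus strand) is the homologue of a bacterial protein of the decoding centre, where codons are read. It had 23.7 and 28.2 CPM in Control and 12.02 and 13.3 CPM in DCKO, a fitted log2 change of -1.04 (SE 0.19, adjusted p = 0.0267, edgeR). Mrps11 (chromosome 7, 78783119 to 78792989), homologue of a bacterial protein of the small-subunit platform, had 28.4 and 31.6 CPM in Control and 13.5 and 15.9 CPM in DCKO. Neither gene's groups overlapped, and Mrps11 had a fitted log2 change of -1.03 (SE 0.19, adjusted p = 0.0253). Mrps18c on chromosome 5 had 20.9 and 21.05 CPM in Control and 10.8 and 12.3 CPM in DCKO, with a fitted log2 change of -0.86 (SE 0.19, adjusted p = 0.0379). It is 1 of 3 homologues of a single bacterial protein, and its paralogues Mrps18a and Mrps18b did not pass, at 0.09 and 0.31 (adjusted p 0.753 and 0.369). Mrps25 on chromosome 6, without a bacterial counterpart, had 58.3 and 59.5 CPM in Control and 35.3 and 31.7 CPM in DCKO, a fitted log2 change of -0.81 (SE 0.16, adjusted p = 0.0276).

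Assignment of reads limits 3 of these 8 values. Mrps11 overlaps Mrpl46 on the opposite strand, Mrps25 overlaps Nr2c2 on the opposite strand, and Mrps18c overlaps the predicted gene Gm43511 on its own strand, and the use of strand in counting is not stated. In all, 42 members overlap another annotated gene. The other 5 called members, Mrpl41, Mrpl16, Mrpl28, Mrpl50 and Mrps12, overlap none. All 8 calls were lost in edgeR when Control 1 or Control 2 was left out, which left 10 and 8 members with an unadjusted p under 0.05. In those fits 1.87% and 1.12% of all genes were called, and the lone Control is assumed to vary like the DCKO pair. All 8 kept a negative fold change and their call when either DCKO library was left out, and edgeR then called 9 members lower and 1 higher (Mrps30) without DCKO 1, and 10 lower and 3 higher (Mrps21, Mrpl45 and Mrpl48) without DCKO 2. Of all genes, 21.8% and 25.3% were called in those fits.

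**Figure D3:**
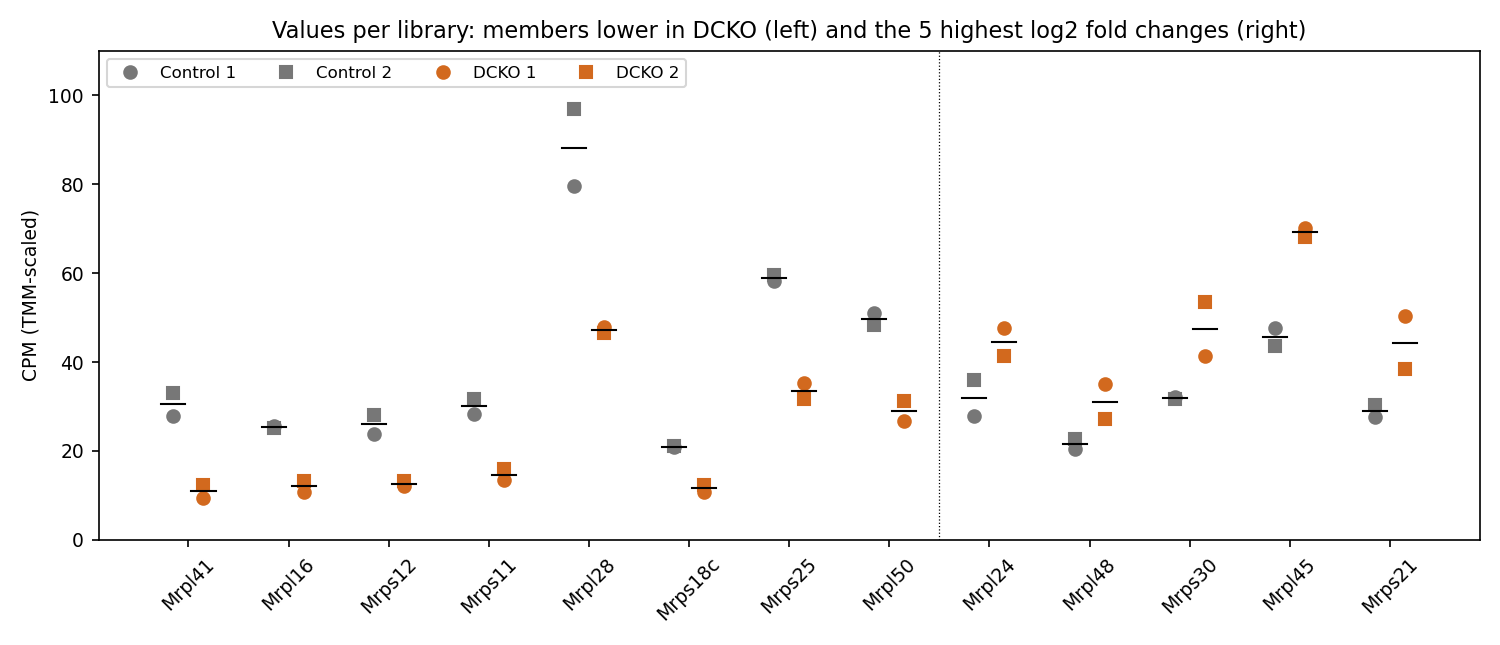
TMM-scaled CPM in each library (circles and squares, grey for Control and orange for DCKO; black bars are means of n = 2) for the 8 members that fell and, right of the dotted line, the 5 members with the highest fitted log2 fold change. In all 8 on the left, both DCKO values lie below both Control values; the 5 on the right did not pass the test.

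Just past the threshold stood further large-subunit members. Mrpl34, a homologue of a bacterial large-subunit protein, had 39.6 and 48.0 CPM in Control and 28.1 and 21.8 CPM in DCKO, with a log2 fold change of -0.81 (adjusted p 0.0512, edgeR). Mrpl12 had 93.7 and 107 CPM in Control and 65.4 and 67.1 CPM in DCKO, with -0.60 (adjusted p 0.0570). Mrpl55 and Mrpl47 had -0.69 and -0.53 (adjusted p 0.0623 and 0.0644). DESeq2 called these 4 as lower, which with the 8 gave 12.

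At the other end, none passed in edgeR with all 4 libraries, while Mrps30 passed without DCKO 1, and Mrps21, Mrpl45 and Mrpl48 passed without DCKO 2. Mrps21, homologue of a small bacterial protein of the small subunit, had 27.5 and 30.4 CPM in Control and 50.3 and 38.3 CPM in DCKO, with a fitted log2 change of 0.61 (SE 0.20, adjusted p 0.0851). Mrpl45, which lies at the exit of the peptide tunnel and helps to hold the ribosome to the inner membrane, had 47.6 and 43.6 CPM in Control and 70.2 and 68.2 CPM in DCKO. Its groups were well apart, with a fitted log2 change of 0.60 (SE 0.15, adjusted p 0.0521), and it passed in DESeq2, in limma-voom and with upper-quartile scaling. Mrps30 had 32.2 and 31.6 CPM in Control and 41.3 and 53.4 CPM in DCKO, with 0.57 (adjusted p 0.0911). Mrpl48 and Mrpl24 followed at 0.52 and 0.48 (adjusted p 0.124 and 0.145).

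By place in the large subunit, 0 of 15 members assigned to the stalk, the central protuberance or the exit tunnel passed in edgeR, and 5 had an unadjusted p under 0.05, against 35.9% of all tested genes. DESeq2 called 3 of them, Mrpl12 and Mrpl47 lower and Mrpl45 higher. The stalk, which recruits translation factors, is formed with Mrpl10, Mrpl11, Mrpl12 and Mrpl53, and all 4 had negative log2 fold changes, at -0.29, -0.17, -0.60 and -0.36. Mrpl53 differed within DCKO, with 14.2 CPM in DCKO 1 and 30.4 CPM in DCKO 2 against 28.3 and 28.7 CPM in Control. In the central protuberance, a lobe facing the small subunit, Mrpl46, Mrpl18 and Mrpl40 were at -0.57, -0.38 and -0.27, and Mrpl38 and Mrpl48 at 0.17 and 0.52. Around the exit tunnel, Mrpl47 and Mrpl44 were at -0.53 and -0.50, Mrpl22 at 0.01, and Mrpl23, Mrpl24 and Mrpl45 at 0.42, 0.48 and 0.60. Neighbouring proteins of the tunnel exit thus had fitted values of both signs.

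Members with and without a bacterial counterpart were also set apart. Of 48 with one, 5 fell, and their median log2 fold change was -0.05. Of 30 without one, 3 fell, and the median was -0.26. Both shares lay near the 10.3% of all members that fell. The background of lower calls was 8.11% of all tested genes and 13.1% of genes in the members' count range. The medians of these backgrounds were 0.03 and -0.10. A difference between members with and without a bacterial counterpart was not tested. Symbols and structures differ for 3 members: Mrps18a and Mrps30 sit in the large subunit, and Mrps36 is now known as a component of the 2-oxoglutarate dehydrogenase complex. Assigned by structure, the medians were -0.14 for 51 large-subunit and -0.08 for 26 small-subunit members. Across the 78 members, Spearman's rho of the log2 fold change with summed exon length was 0.31, against -0.07 across all tested genes, and that with GC content was -0.21 against 0.01. These are descriptions across genes that share the same 4 libraries.

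Many members start beside another gene that runs the opposite way. Such a head-to-head neighbour, with starts at most 1000 bases apart or overlapping by at most 500, was found for 26 members. Mrps11 and Mrpl46 are neighbours of each other, and the 41 bases between their RefSeq starts are shown because both genes read away from them (chr7:78783090-78783130, plus strand, GRCm38.p6).
Mrpl46 and Mrps11: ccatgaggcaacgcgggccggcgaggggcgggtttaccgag
Mrpl46 had 26.6 and 25.2 CPM in Control and 14.3 and 20.5 CPM in DCKO, below Control in both libraries, but did not pass (log2 fold change -0.57, adjusted p 0.140, edgeR). Their annotated GENCODE starts overlap by 412 bases, so part of their reads cannot be assigned without strand. The other called members with such a neighbour had partners that did not pass: Pnpla7 beside Mrpl41 at 0.42, Sars2 beside Mrps12 at -0.18, Helq beside Mrps18c at 0.04 and Zfp189 beside Mrpl50 at 0.00. Of the 24 neighbours that are not members, Hira beside Mrpl40, Klc4 beside Mrpl2 and Ppp1r10 beside Mrps18b fell, with log2 fold changes of -1.21, -0.83 and -1.63, and Apba3 beside Mrpl54 rose, with 0.89. The 4 members beside them did not pass. Lower calls made up 12.5% of these 24 neighbours and higher calls 4.17%, against 8.11% and 8.93% of all tested genes. Chromosome 11 holds 11 members, more than any other.

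Other genes of mitochondrial translation were tested in the same fit. Dap3, Ptcd3, Chchd1, Aurkaip1 and Gadd45gip1 encode mitochondrial ribosomal proteins outside the symbol rule, and 0 of the 5 passed in edgeR, in DESeq2 or in limma-voom, with 0 at an unadjusted p under 0.05 in edgeR. Of 27 genes for assembly of this ribosome and modification of its RNA, 1 fell and 0 rose in edgeR, with 7 at an unadjusted p under 0.05 and a median log2 fold change of -0.22. DESeq2 called 5 lower, limma-voom 2 lower, and edgeR without DCKO 2 called 8 lower and 1 higher. The gene that fell was Ybey, an endonuclease for ribosomal RNA, with 19.2 and 18.8 CPM in Control and 5.97 and 6.58 CPM in DCKO (log2 fold change -1.60, adjusted p 0.0125). Among 16 mitochondrial translation factors 0 passed in edgeR, with 4 at an unadjusted p under 0.05, while DESeq2 called 2 lower and limma-voom 0. Among 17 mitochondrial tRNA synthetases 0 passed in edgeR, with 3 at an unadjusted p under 0.05, while DESeq2 called 2 higher and 1 lower and limma-voom 1 higher.

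Of 10 genes for upkeep and transcription of mitochondrial DNA, 2 fell and 1 rose, with a median of -0.52, and edgeR without DCKO 2 called 4 lower and 2 higher. Twnk, the mitochondrial DNA helicase, had 37.7 and 34.5 CPM in Control and 15.3 and 17.7 CPM in DCKO. Tfb2m, a mitochondrial transcription factor, had 12.1 and 10.8 against 5.52 and 5.30 CPM. Their log2 fold changes were -1.13 and -1.08 (adjusted p 0.0180 and 0.0334, edgeR). Mgme1, a nuclease of mitochondrial DNA replication, rose with 0.79 (adjusted p 0.0480). Twnk overlaps the member Mrpl43, which was at -0.44 (adjusted p 0.145). Of 11 regulators of mitochondrial biogenesis, 1 rose, Ppargc1b, a transcriptional coactivator, with 1.34 and 1.42 CPM in Control against 3.57 and 7.58 CPM in DCKO. In edgeR, 5 of the 11 (45.5%) had an unadjusted p under 0.05. DESeq2 called 2 of the 11 higher and 3 lower, and limma-voom 1 and 1. Those whose motifs were searched did not pass: Yy1 at -0.62 (adjusted p 0.0534), Gabpa at -0.37 (0.200) and Nrf1 at 0.11 (0.626).

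Cytosolic ribosomal proteins are the counterparts in the ribosome of the cytosol. Of 77 tested genes 5 rose (6.49%, against 8.93% of all tested genes) and 0 fell, with a median log2 fold change of 0.52. All 77 fitted values were positive, against 28 of the 78 members and 9834 of all 19207 tested genes. The lead gene was Rps12, with 351 and 341 CPM in Control and 776 and 619 CPM in DCKO (log2 fold change 1.01, adjusted p 0.0234, edgeR). DESeq2 called 16 of the 77 and edgeR 41 without DCKO 2, 2 without DCKO 1 and 0 without either Control, and 75 were positive without DCKO 1. With scaling to library totals, 68 of the 77 stayed positive with a median of 0.17, and the member medians were -0.52 and -0.41 for the large and small subunit, while the median of all genes moved to -0.32. The gap of each subunit to the median of all genes was -0.19 and -0.08 under both scalings. A change of scaling moves all genes by nearly the same amount, so this match was fixed in advance and tests nothing. Of 80 tested nuclear genes for oxidative phosphorylation, the respiratory chain and ATP synthase, 2 rose and 2 fell, with a median of -0.03. The fallen genes were Sdhb and Atp5j, and the risen ones Cox4i2 and Ndufv3. The 37 genes of the mitochondrial genome were listed at 0 counts in all 4 libraries, so the RNA and the messages of this ribosome give no values here. Without Control 1 or Control 2, edgeR called 0 genes of these lists of mitochondrial and ribosomal genes.

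**Figure D4:**
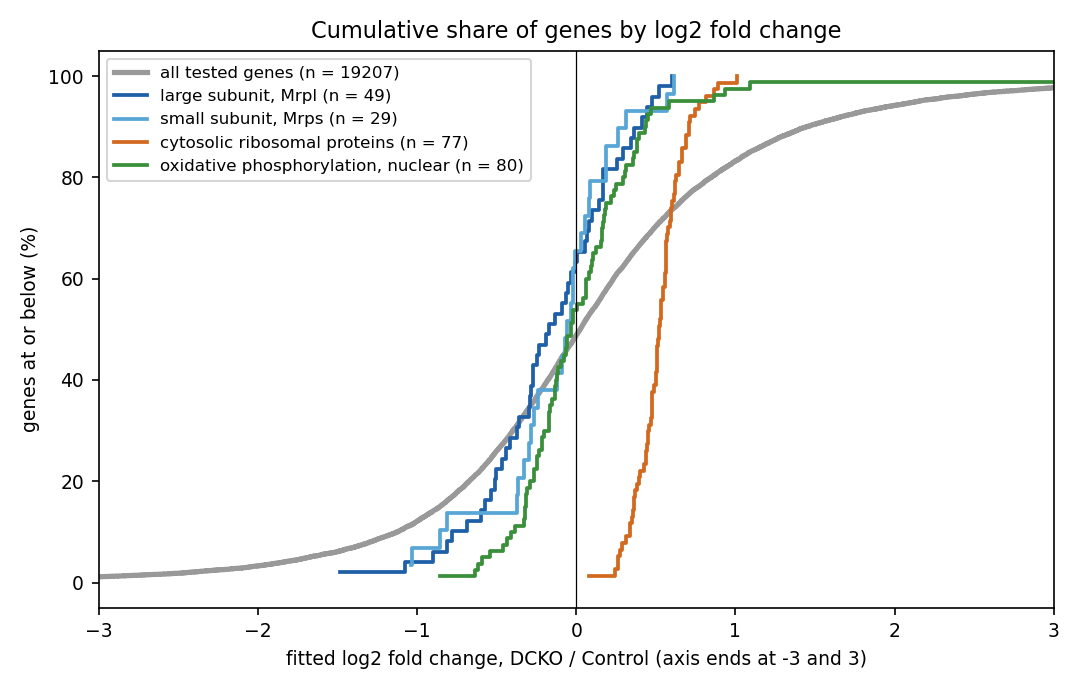
Cumulative percentage of genes (y axis) at or below a fitted log2 fold change, DCKO relative to Control (x axis), for all tested genes, both subunits, cytosolic ribosomal proteins and nuclear oxidative phosphorylation genes. The lines of both subunits are steep and cross 0 with over 60% of genes below it, and that of the cytosolic ribosomal proteins lies entirely above 0, with a median of 0.52.

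The authors' deposited table of differential expression lists all 78 members. At a false discovery rate under 0.05 it has 9 of them lower and 0 higher, against 28.8% of its 12574 rows called, 13.2% lower and 15.6% higher. The 9 are the 8 above and Mrpl34, which has a log2 fold change of -0.76 and a false discovery rate of 0.0326 in the authors' deposited table. The same table gives Mrpl41 a log2 fold change of -1.43 and a false discovery rate of 8.42e-05.

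The number of called members changed with scaling and test. Scaling to library totals called 25 members, all lower, and DESeq2 called 13, 12 lower and 1 higher. Library totals called 25.8% of the 19207 tested genes, and DESeq2 called 16.4% of the 30682 genes it fitted. Over all genes, library totals called 1219 genes higher and 3744 lower, against 1716 and 1558 with TMM.

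**Figure D5:**
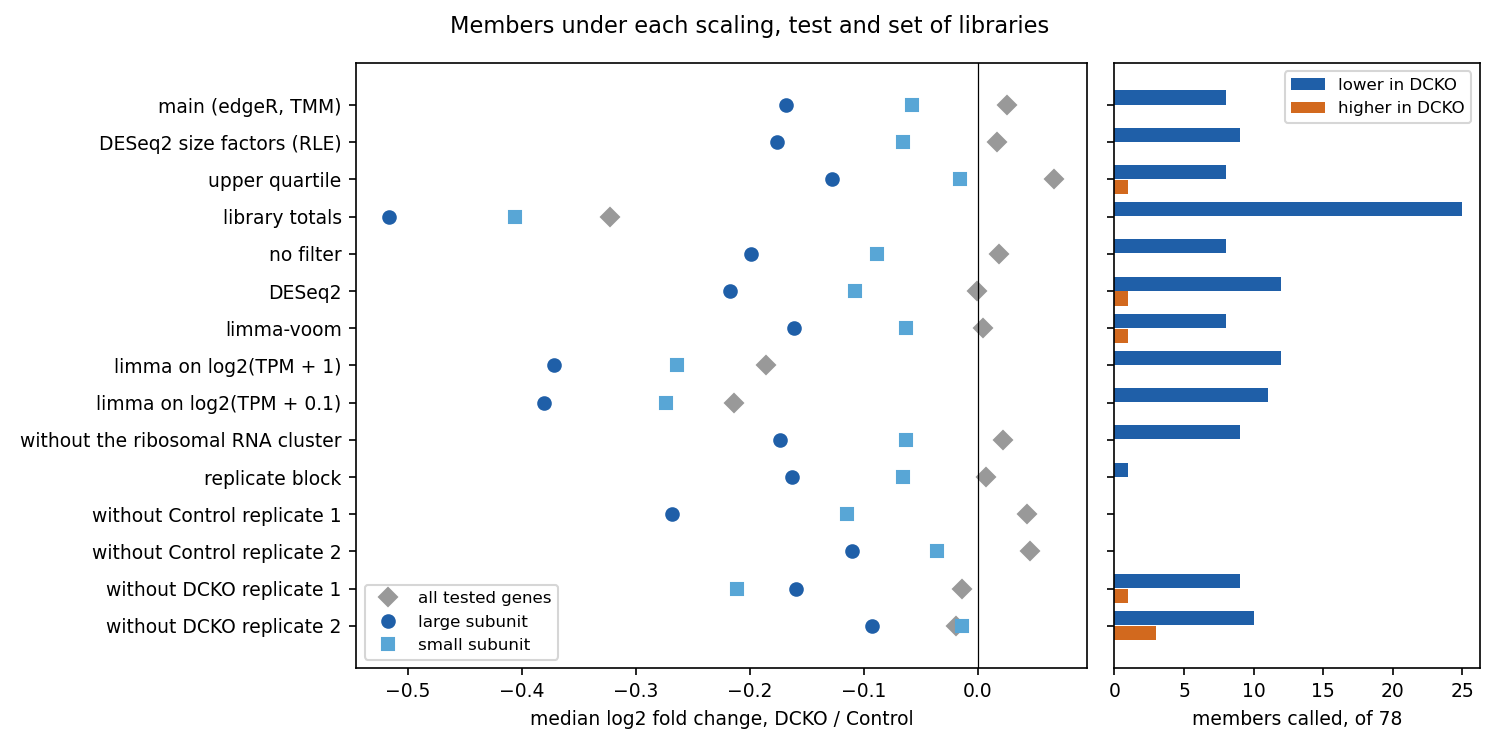
Left, median log2 fold change (DCKO relative to Control) of all tested genes, the large subunit and the small subunit under each scaling, test and set of libraries; right, number of the 78 members called lower or higher at an adjusted p under 0.05. The subunits shift with the median of all genes under library totals and TPM, and 0 members are called when a Control library is left out.

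The targeted genes and the tissue give the setting of these values. Total counts were 41798361 to 55137810 per library. Lats1 had 44.2 and 65.6 CPM in Control and 30.0 and 29.7 CPM in DCKO (log2 fold change -0.88, adjusted p 0.0538, edgeR), and Lats2 had 26.7 and 13.3 against 21.2 and 35.3 CPM (0.50, adjusted p 0.426), over whole genes rather than the floxed exons. Neural progenitor markers, summed, were 2575 and 2959 CPM in Control and 2212 and 1690 CPM in DCKO, with 6 of 8 lower. Their median log2 fold change was -2.04, and 1 of the 8 had a positive value, 0.70. Neuron markers were 943 and 1203 against 559 and 246 CPM, with 3 of 8 lower. Markers of surface ectoderm were 14.9 and 17.6 against 324 and 446 CPM (8 of 9 higher), of cranial mesenchyme 164 and 195 against 1219 and 588 CPM (7 of 8), of endothelium 164 and 154 against 692 and 403 CPM (5 of 8), and of pericytes 52.5 and 48.6 against 462 and 670 CPM (5 of 7). Erythroid markers were 1905 and 2893 against 674 and 512 CPM (6 of 9 lower). Macrophage markers were 20.5 and 24.0 against 57.0 and 16.3 CPM, and cell-cycle markers 3093 and 2782 against 2723 and 2189 CPM. In edgeR 0 of 6 macrophage and 0 of 8 cell-cycle markers passed, with 0 and 2 at an unadjusted p under 0.05. DESeq2 called 0 and 1. All 8 cell-cycle markers had negative fitted values, and 5 of 6 macrophage markers had positive ones. Without Control 1 or Control 2, 6 or 5 surface ectoderm, 3 or 3 neural progenitor, 5 or 2 erythroid, 3 or 1 pericyte, 0 or 1 mesenchyme and 0 endothelial and neuron markers passed. No listed marker was at 0 in both libraries of a group. The part of these cell types in the members' values was not tested. Counts of Xist were 10837 and 7786 among Control embryos but 8 and 22 among DCKO embryos, so embryo sex, like the Cre transgene, cannot be told apart from the group.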

How the data were processed

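Messages of cranial neural tubes from 2 Control and 2 DCKO embryos were measured by RNA sequencing. Per the labels' protocols, RNA was isolated with an RNeasy kit, libraries were made with a Kapa stranded kit and an Illumina NextSeq 500 was used. The authors deposited raw read counts of each library by Ensembl gene, and how they were made, including the use of strand, is not given in the sources used here. TPM per gene, scaled by length to a fixed library sum, were also deposited by the authors. Another table that the authors deposited holds their log2 fold changes, p-values and false discovery rates. Per the submitters' processing notes, TopHat2 2.1.1, StringTie, edgeR 3.16.5, limma 3.30.13 and R 3.3.2 were used with mm10 and GRCm38, in roles not stated.

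The counts were tested with edgeR 4.0.16 in R 4.3.3: filterByExpr (minimum count 10, minimum total 15; 19207 genes), TMM scaling (factors 1.14, 1.12, 0.888 and 0.885 for Control 1, Control 2, DCKO 1 and DCKO 2), group as the only term, 2 residual degrees of freedom and Benjamini-Hochberg adjustment with a threshold of 0.05, two-sided. The standard error of a log2 fold change was derived from the F statistic. The test was checked on simulated counts. Symbols, matched for 54409 of 54532 IDs, and coordinates are those of GENCODE M21 on GRCm38, and promoter windows are RefSeq's for GRCm38.p6. Alternatives used DESeq2 1.42.0, limma 3.58.1 (voom, and log2 of TPM plus 1 or plus 0.1 for genes with a mean TPM of at least 1), other scalings, other filters and each library left out.

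Named members are those that passed, the 5 highest and 5 lowest fold changes and the extremes of TPM in each subunit, members at named places in the structure, and up to 3 called genes per list. The members and lists were chosen with earlier results of these data known. Depth limits precision little, since every member had at least 2884 counts in all, but each group holds only 2 embryos. The edgeR test combines their spread for a gene with a spread estimated over all tested genes. The depths given are counts of reads, which carry no molecular identifiers, so they do not by themselves give the counting error. Whether the replicate numbers mark shared litters is not stated.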

Additional observations from a re-analysis of the deposited data

How the results depend on the processing

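Over 14 alternatives, the 8 lower members kept a negative log2 fold change in each, and kept their call except without Control 1, without Control 2 and, for all but Mrpl41, with the replicate block. Scaling to library totals called 25 members and 4963 of 19207 genes (25.8%). It gave subunit medians of -0.52 (large) and -0.41 (small), with the median of all genes at -0.32. DESeq2 called 13 members and 5040 of 30682 fitted genes (16.4%). On log2(TPM + 1) the medians were -0.37 and -0.26, with all genes at -0.19. On log2(TPM + 0.1) they were -0.38 and -0.27, with all genes at -0.21. Leaving out 1 library gave 0 to 13 called members, 227 to 5184 called genes, a large-subunit median of -0.27 to -0.093 and a small-subunit median of -0.21 to -0.014, and the cause was not tested. With 1 library left in a group, its spread is taken from the other pair. Depth was not the limit for a member, since the lowest summed count was 2884, and the 2 embryos per group set the precision.

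The replicate block, with the library number as a term, left 1 called member (Mrpl41) and 1778 called genes. Differences between libraries 1 and 2 correlated at -0.08 between the groups, with 2 pairs, and the numbers were not taken to pair the embryos.

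Of all 78 members, 20 changed sign under library totals, 17 on each TPM scale, 6 with upper quartiles, 2 in DESeq2, and 7, 7, 8 and 12 without Control 1, Control 2, DCKO 1 and DCKO 2; 0 of these were among the 8. Values follow for those among the 43 members chosen by the naming rule. Under library totals the named ones were Mrpl1 (-0.21), Mrpl22 (-0.34), Mrpl30 (-0.057), Mrpl38 (-0.18), Mrpl54 (-0.28), Mrps14 (-0.16), Mrps16 (-0.084), Mrps18a (-0.26), Mrps18b (-0.034) and Mrps36 (-0.27). On log2(TPM + 1) the named ones were Mrpl1 (-0.33), Mrpl17 (0.36), Mrpl22 (-0.21), Mrpl30 (-0.044), Mrpl38 (-0.0030), Mrpl48 (-0.00065), Mrpl54 (-0.17), Mrps14 (-0.022), Mrps16 (-0.014), Mrps18a (-0.12) and Mrps36 (-0.13). On log2(TPM + 0.1) the named ones were Mrpl1 (-0.36), Mrpl17 (0.38), Mrpl22 (-0.21), Mrpl30 (-0.044), Mrpl38 (-0.0031), Mrpl48 (-0.0038), Mrpl54 (-0.18), Mrps14 (-0.023), Mrps16 (-0.014), Mrps18a (-0.12) and Mrps36 (-0.13). Mrpl22, at 0.01 in the report, was at -0.0024 with DESeq2 size factors, -0.026 with no filter, -0.045 in DESeq2 and -4.1e-05 without the ribosomal RNA cluster. With upper quartiles Mrps35 (0.020) and Mrps6 (0.021) were the named ones. Over the fits without 1 library, ranges were -0.13 to 0.12 for Mrpl22, -0.12 to 0.23 for Mrpl54, -0.016 to 0.14 for Mrps36, -0.024 to 0.17 for Mrps18a, -0.12 to 0.046 for Mrps35, -0.10 to 0.026 for Mrps6, -0.22 to 0.026 for Mrpl17, -1.01 to 0.084 for Mrpl53, -0.069 to 0.32 for Mrpl1, -0.20 to 0.078 for Mrpl35 and -0.41 to 0.12 for Mrps15.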
